A study of Mus musculus with 6 samples.

Results

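The 14-3-3 genes encode a family of small adaptor proteins, and their messenger RNA was examined in mouse dorsal striatum carrying the Parkinson's disease change G2019S in the kinase gene Lrrk2. The family was taken as the rows of the deposited table whose gene name was Ywhab, Ywhae, Ywhag, Ywhah, Ywhaq, Ywhaz or Sfn, 7 genes of 23067 in the table. All 7 were present once, and all 7 passed the filter of a mean of at least 1 FPKM, a unit of abundance corrected both for the length of a transcript and for the size of its library. RNA came from dorsal striatum dissected at postnatal day 21, from 3 knock-in samples homozygous for the G2019S allele and from 3 wild-type samples homozygous for the wild-type allele. The titles give all 6 as male, no drug or other agent is named, and the strain background is not given in the sources used here. The knock-in places the change in the germline gene, so every cell type of the tissue carries it, and bulk RNA does not show in which cells a level arises.

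14-3-3 proteins form cup-shaped dimers, as homodimers or mixed pairs, and each subunit holds a client protein by a short stretch around a phosphorylated serine or threonine. They are among the abundant soluble proteins of brain, where they hold signalling enzymes, channels and transcription factors in a given place or state. LRRK2 is a client: serines ahead of its leucine-rich repeats bind 14-3-3 when phosphorylated, and loss of that phosphorylation releases 14-3-3 and goes with a changed location of LRRK2 in the cell. The G2019S change lies in the kinase domain and raises kinase activity.

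Libraries were much alike, with correlations over the 14156 tested genes of 0.983 to 0.989 within genotypes and 0.984 to 0.990 between genotypes, and between 13999 and 14191 genes reached 1 FPKM. Markers of striatal projection neurons were abundant, with 9 of 9 in the table and a sum of 2732 to 3025 FPKM in knock-in and 2737 to 2864 FPKM in wild type. Lrrk2 (chromosome 15, 91673175 to 91816120) was measured at 12.1, 11.3 and 12.4 FPKM in the knock-in libraries, against 10.9, 12.0 and 10.996 FPKM in the wild-type libraries. Wherever 3 values of a genotype are listed, they are those of replicates 1, 2 and 3. The ranges of Lrrk2 overlapped (log2 difference 0.07, SE 0.07, adjusted p = 0.997 in limma), and a base change of this kind leaves the transcript in place, so the level does not check the labels. The labels do not say whether each sample was a separate animal, and p-values therefore cover only the spread among the 3 samples of a genotype, part of which may be technical.

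The 7 genes lie on 6 chromosomes of GRCm38. Ywhab is on chromosome 2 at 163994960 to 164018588, Sfn on chromosome 4 at 133600556 to 133602168, Ywhae on chromosome 11 at 75732869 to 75765845 and Ywhaq on chromosome 12 at 21390071 to 21417637. Ywhah (33018816 to 33027966) and Ywhag (135908409 to 135934616) share chromosome 5 but lie 102.9 Mb apart. Ywhaz, on chromosome 15 at 36770770 to 36796929, is on the chromosome of the edited gene, 54.9 Mb from it. No exon base of the 7 genes is shared with another annotated gene on the same strand, and 248 exon bases of Ywhaq lie opposite the predicted gene Gm4419.

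Among the 7 genes, the coding sequences differ enough that most of each transcript is distinct from those of the other members. Identity over the aligned coding bases of the 21 pairs ran between 60.6% for Ywhae with Ywhag and 78.7% for Ywhag with Ywhah. The longest run of identical bases between any pair of transcripts was 30, again between Ywhag and Ywhah. Shared sequence was looked for in transcripts of other GENCODE M21 genes, on either strand, as an identical run of at least 60 bases. Ywhab, Ywhae and Ywhag had none, Ywhah had 1, Ywhaq 10, Ywhaz 3 and Sfn 2. Of these, 1, 8, 3 and 1 had a row in the table, and reads of the shared runs could be assigned to either gene. Not all are separate copies: those counted for Ywhaq include Gm4419, which lies opposite Ywhaq itself. They also include Cdk5rap2, whose span holds the pseudogene Ywhaq-ps3. A stretch of 60 coding bases is shown for each gene because it encodes part of the surface where the subunits meet, and because the kinase PAK6, which acts on 14-3-3γ in this region, weakens the hold of 14-3-3γ on LRRK2. Each is written 5′ to 3′ on the coding strand, from a single exon, with the codon just before the conserved tryptophan codon in capitals, read from GENCODE M21 transcripts.
Ywhab: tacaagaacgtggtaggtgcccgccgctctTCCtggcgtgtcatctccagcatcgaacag
Ywhae: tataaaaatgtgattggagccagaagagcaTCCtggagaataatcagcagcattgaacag
Ywhag: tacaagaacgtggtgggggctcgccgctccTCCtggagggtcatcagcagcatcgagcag
Ywhah: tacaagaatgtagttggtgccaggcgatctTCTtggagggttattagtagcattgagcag
Ywhaz: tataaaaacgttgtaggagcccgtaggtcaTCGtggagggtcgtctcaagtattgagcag
Ywhaq: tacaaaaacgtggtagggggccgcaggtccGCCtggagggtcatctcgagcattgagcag
Sfn: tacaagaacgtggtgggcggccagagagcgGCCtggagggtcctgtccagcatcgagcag

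The codon in capitals encodes serine in Ywhab, Ywhae, Ywhag, Ywhah and Ywhaz, and alanine in Ywhaq and Sfn, a residue that cannot be phosphorylated. Of the 60 bases, 30 were the same in all 7 genes. The stretches lie at chr2:164011752-164011811 on the plus strand for Ywhab, chr11:75751961-75752020 on the plus strand for Ywhae and chr5:135911535-135911594 on the minus strand for Ywhag. They lie at chr5:33026599-33026658 on the plus strand for Ywhah, chr15:36790777-36790836 on the minus strand for Ywhaz, chr12:21416891-21416950 on the minus strand for Ywhaq and chr4:133601569-133601628 on the minus strand for Sfn.

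The family held 6 abundant genes and 1 scarce one. Mean FPKM over the 6 libraries was 180.5 for Ywhae (14-3-3ε), 160.1 for Ywhaz (14-3-3ζ), 109.4 for Ywhab (14-3-3β), 90.3 for Ywhag (14-3-3γ), 70.9 for Ywhaq (14-3-3θ), 63.7 for Ywhah (14-3-3η) and 1.63 for Sfn (14-3-3σ). Ywhae was the 156th most abundant gene of the table and Ywhah the 615th, while 45.9% of genes were below Sfn. Every pair of neighbours kept this order in 6 of 6 libraries. The ranges of Ywhae and Ywhaz nevertheless overlapped across libraries, with a within-library ratio of 1.04 to 1.17, as did those of Ywhaq and Ywhah, with a ratio of 1.02 to 1.23. The step from Ywhah to Sfn was 35.0 to 42.2 times. Sfn is known from epithelia, where it is induced by p53 and holds cells at a cell cycle checkpoint. Of 6 epithelial markers 4 were in the table (Krt5 and Krt14 were not), and their sum was 0.255 to 0.778 FPKM in knock-in and 0.652 to 1.53 FPKM in wild type.

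The first question was whether any 14-3-3 transcript differed between genotypes. None of the 7 was called by limma at an adjusted p under 0.05, in a comparison where 3 of 14156 genes (0.0212%) were called; 1 of the 7, Ywhah, had an unadjusted p under 0.05. All 7 mean differences were positive, that is towards knock-in, where 43.6% of all tested genes were. The median log2 difference of the 7 was 0.06, against -0.01 over all tested genes. The differences were small: on the log2(FPKM + 1) scale they ran between 0.02 for Sfn and 0.18 for Ywhah, with standard errors of 0.06 to 0.07. Of the 7 genes, 2 had every knock-in library above every wild-type library, a separation seen in that direction in 2.92% of tested genes.

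**Figure D1:**
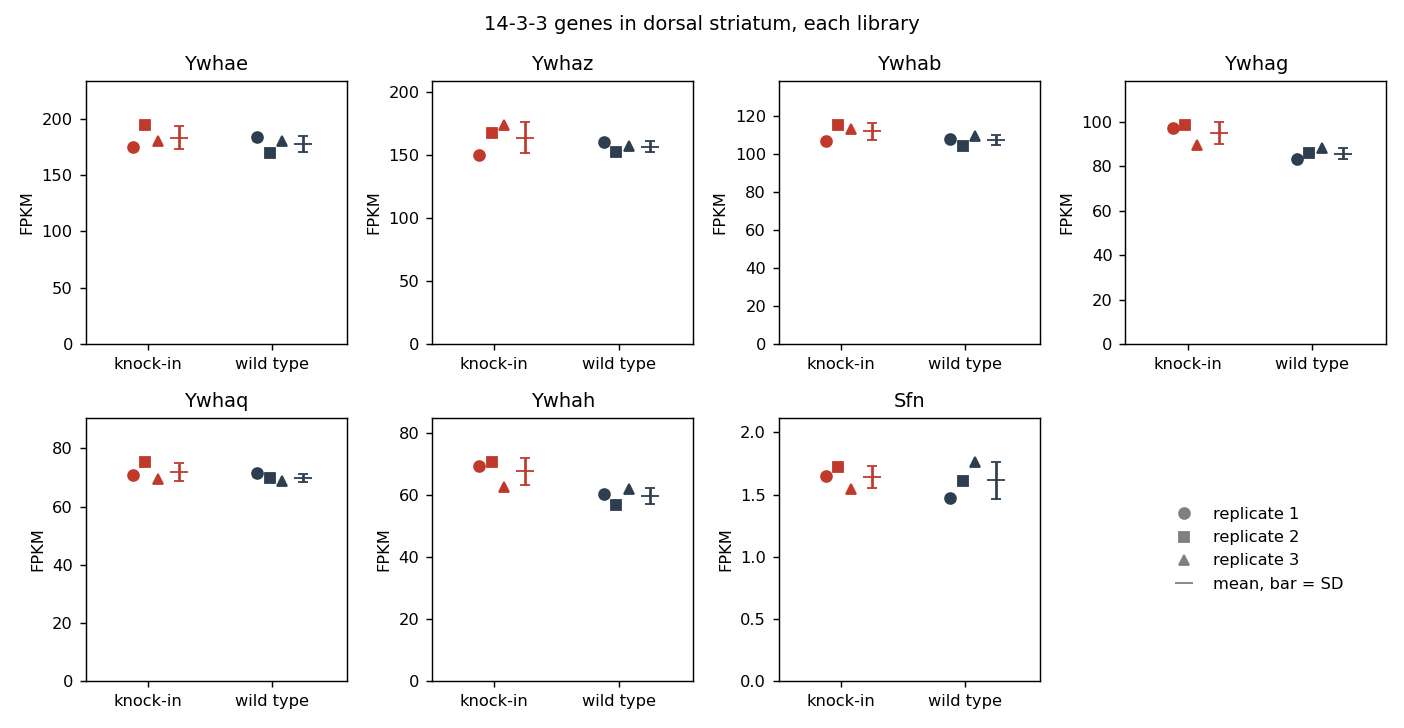
FPKM of each 14-3-3 gene (vertical axes from 0, own scale in each panel) in the 3 knock-in libraries, at left, and the 3 wild-type libraries, at right. Symbols mark replicates, and bars give the mean and SD. Only Ywhag and Ywhah do not overlap between genotypes.

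Those 2 genes were Ywhah and Ywhag, the pair closest in coding sequence. Ywhah encodes 14-3-3η. Ywhah stood at 69.5, 70.8 and 62.7 FPKM in the knock-in libraries, against 60.4, 56.8 and 61.8 FPKM in the wild-type libraries. Knock-in replicates 1 and 2 were the high libraries, while knock-in replicate 3 was barely above the highest wild-type library. The means were 67.7 ± 4.33 FPKM in knock-in and 59.7 ± 2.59 FPKM in wild type (SD, n = 3 each), a ratio of 1.13. The log2 difference of 0.18 (SE 0.07) had a limma p of 0.0375 before adjustment and 0.997 after it, where 1.25% of all tested genes had an unadjusted p under 0.05 in this direction.

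The copy of Ywhah is the processed pseudogene Gm12428 (chromosome 3, 98821038 to 98821764), which shares an identical run of 193 bases. Gm12428 had 29.1, 30.7 and 26.4 FPKM in the knock-in libraries, against 28.2, 26.2 and 28.2 FPKM in the wild-type libraries, on average 44.2% of the level of Ywhah. Its genotypes overlapped. With the pseudogene added to Ywhah, weighted by transcript length, the level was 81.5, 83.5 and 73.6 FPKM in knock-in and 72.1, 67.6 and 73.4 FPKM in wild type. The groups then stood apart by the margin of knock-in replicate 3 over wild-type replicate 3, and the log2 difference was 0.16 (SE 0.07) with an unadjusted p of 0.0572 in limma (this sum was added after seeing the data).

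14-3-3γ, the product of Ywhag, is rich in neurons, and variants of its human gene cause a developmental epilepsy. Ywhag stood at 96.9, 98.6 and 89.5 FPKM in the knock-in libraries, against 83.1, 85.7 and 88.1 FPKM in the wild-type libraries. As for Ywhah, knock-in replicates 1 and 2 were high and knock-in replicate 3 lay close above the wild-type range. The means were 94.99 ± 4.85 FPKM in knock-in and 85.6 ± 2.51 FPKM in wild type (SD, n = 3 each), a ratio of 1.11. The log2 difference was 0.15 (SE 0.06), with an unadjusted p of 0.0536 and an adjusted p of 0.997 in limma. The ratio of Ywhah to Ywhag was 0.717, 0.718 and 0.701 in the knock-in libraries, against 0.727, 0.663 and 0.702 in the wild-type libraries, and these ranges overlapped.

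The summed markers of cortical excitatory neurons were highest in the same knock-in libraries, though not every marker was. The sum over 8 of 8 markers in the table was 98.1, 88.6 and 55.5 FPKM in the knock-in libraries, against 71.6, 53.1 and 52.8 FPKM in the wild-type libraries. The vesicular glutamate transporter gene Slc17a7, a defining marker of these neurons, had 29.9, 25.2 and 3.41 FPKM in the knock-in libraries, against 10.95, 3.55 and 2.73 FPKM in the wild-type libraries. Lamp5, the largest part of each sum, was at 44.7 to 46.4 FPKM in knock-in and 41.1 to 48.2 FPKM in wild type. It was highest in wild-type replicate 1. Cux2 was also higher in wild-type replicate 2, at 2.48 FPKM, than in knock-in replicate 2, at 2.44 FPKM. None of the 8 markers was at 0 in any library, and of the 6 that were tested, 6 were higher on average in knock-in and 0 were called. When the mean level of these markers entered the model as a covariate (this alternative was added after seeing the data), the difference was 0.11 for both Ywhag and Ywhah, with unadjusted p-values of 0.168 and 0.165 in limma. The difference was 0.12 for Ywhaz, 0.08 for Ywhab, 0.03 for Ywhae, 0.0024 for Ywhaq and 0.012 for Sfn with this covariate, and none of the 7 genes was called. Wild-type replicate 1, next in cortical markers after those 2 libraries, was the lowest of the 6 libraries for Ywhag. In bulk tissue, a different share of a cell type and a different amount of RNA per cell cannot be told apart.

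**Figure D2:**
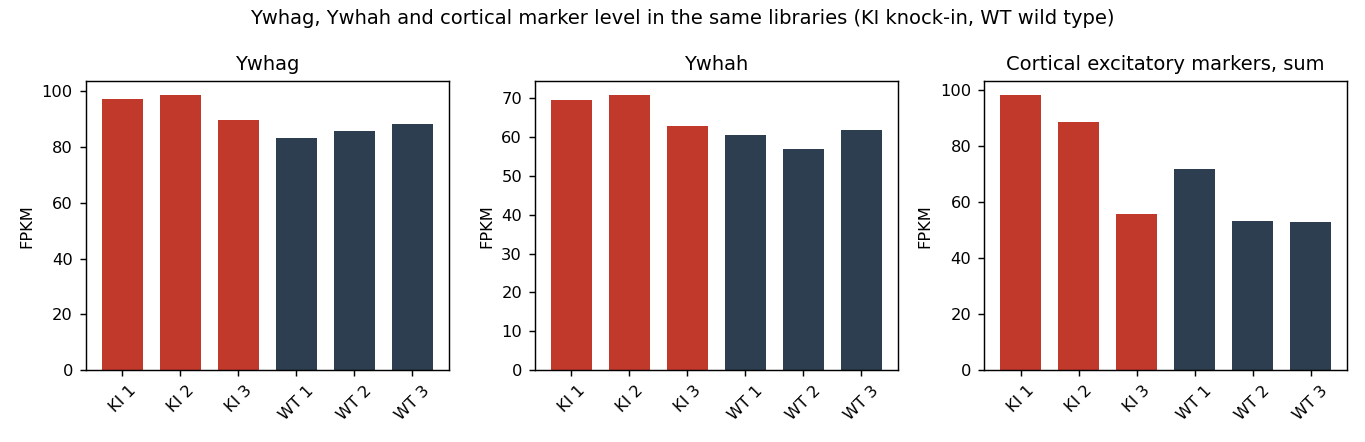
FPKM of Ywhag, of Ywhah and of the summed cortical excitatory neuron markers (vertical axes from 0) in each library, knock-in replicates 1 to 3 at left and wild-type replicates 1 to 3 at right. Knock-in replicates 1 and 2 are the highest in all 3 panels, and the marker sum of knock-in replicate 3, 55.5 FPKM, lies within the wild-type range.

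The most abundant members overlapped between genotypes. 14-3-3ε partners with the dynein regulator Ndel1 in neuronal migration. Its gene, Ywhae, stood at 174.7, 194.5 and 180.6 FPKM in the knock-in libraries, against 183.4, 169.8 and 180.0 FPKM in the wild-type libraries. Its mean difference depended on replicate 2 of each genotype. The log2 difference was 0.04 (SE 0.07) with all 6 libraries. It was -0.00023 without knock-in replicate 2 and 0.011 without wild-type replicate 2.

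14-3-3ζ binds tyrosine hydroxylase and tau among many clients. Ywhaz stood at 149.8, 167.7 and 173.7 FPKM in the knock-in libraries, against 160.2, 151.9 and 157.2 FPKM in the wild-type libraries. Its knock-in libraries included both the lowest and the highest of the 6, with an SD of 12.4 FPKM in knock-in and 4.20 FPKM in wild type. The log2 difference was 0.06 (SE 0.07). The order of the knock-in libraries was unlike that of Ywhag and Ywhah, since knock-in replicate 1 was the lowest library for Ywhaz. Its copy Gm4202, a processed pseudogene on chromosome 3 at 92689426 to 92690158, shares a run of 589 bases. Gm4202 had 60.9, 65.0 and 68.8 FPKM in the knock-in libraries, against 64.6, 67.0 and 66.3 FPKM in the wild-type libraries, and the genotypes overlapped. Gm14287, a fragment of 117 bases with a shared run of 108, was at 26.1 to 31.2 FPKM in knock-in and 27.8 to 30.8 FPKM in wild type. With the copies added by length, the log2 difference of Ywhaz was 0.06 (SE 0.07).

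Ywhab, the gene of 14-3-3β, stood at 106.9, 115.2 and 113.1 FPKM in the knock-in libraries, against 107.8, 104.1 and 109.4 FPKM in the wild-type libraries, a log2 difference of 0.06 (SE 0.06). Knock-in replicates 2 and 3 were above the wild-type range and knock-in replicate 1 within it.

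Sfn stood at 1.65, 1.73 and 1.55 FPKM in the knock-in libraries, against 1.47, 1.61 and 1.77 FPKM in the wild-type libraries. The knock-in libraries lay inside the wild-type range (log2 difference 0.02, SE 0.07).

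Ywhaq, the gene of 14-3-3θ (also called τ), stood at 70.9, 75.5 and 69.3 FPKM in the knock-in libraries, against 71.4, 69.7 and 68.6 FPKM in the wild-type libraries. The ranges overlapped (log2 difference 0.04, SE 0.06). Of 3 named processed pseudogenes of Ywhaq in GENCODE M21, 2 had a row in the table. Ywhaq-ps3, listed there as Gm11226, lies on the minus strand of chromosome 4 at 70248636 to 70249373, within the span of the centrosome gene Cdk5rap2. Its 738 bases were 99.6% identical to Ywhaq, with an unbroken identical run of 404 bases, and covered all 735 coding bases, so reads could be assigned to either copy. A further copy, Gm2423 (chromosome 13, 13232161 to 13232893), shares a run of 410 bases and was at 27.4 to 32.4 FPKM in knock-in and 29.4 to 30.9 FPKM in wild type.

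The level given to Ywhaq-ps3 varied more than that of Ywhaq. Ywhaq-ps3 had 25.1, 27.6 and 22.4 FPKM in the knock-in libraries, against 25.4, 5.61 and 24.0 FPKM in the wild-type libraries. Wild-type replicate 2 stood apart from the other 5 libraries, although Ywhaq itself was not low there. With all pseudogene copies added by length, Ywhaq was at 90.97, 97.1 and 87.6 FPKM in the knock-in libraries and 91.9, 83.5 and 87.9 FPKM in the wild-type libraries, and these ranges overlapped (log2 difference 0.07, SE 0.07). The second named pseudogene, Ywhaq-ps2 (chromosome 5, 114828573 to 114829215), was 95.2% identical over 585 aligned bases. It was at 0.749 to 0.770 FPKM in knock-in and 0.820 to 0.847 FPKM in wild type, ranges that did not overlap, as for 6.58% of tested genes in that direction. It was below the filter and was not tested.

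**Figure D3:**
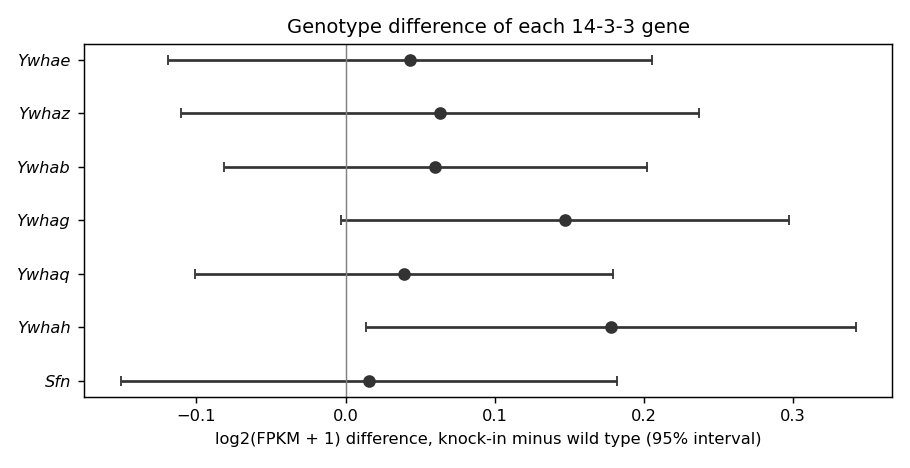
Difference in log2(FPKM + 1) between knock-in and wild type for each 14-3-3 gene, in order of mean level from the top, with the 95% interval from limma (3 libraries per genotype). The points lie between 0.02 and 0.18, and of the 7 intervals only that of Ywhah does not include 0.

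The 95% intervals, not adjusted over genes, give the range of each difference. Expressed as folds of FPKM + 1, the intervals of the 7 genes lay between 0.901 and 1.27, which were the lower bound of Sfn and the upper bound of Ywhah. For Ywhah the interval was 1.01 to 1.27 and for Ywhag 0.998 to 1.23. For Ywhae it was 0.921 to 1.15, for Ywhaz 0.926 to 1.18, for Ywhab 0.945 to 1.15, for Ywhaq 0.932 to 1.13 and for Sfn 0.901 to 1.13.

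The pool as a whole and its makeup were then compared, because 14-3-3 dimers can mix subunits. The summed FPKM of the 7 genes was 670.5, 723.9 and 690.5 in the knock-in libraries, against 667.8, 639.7 and 666.9 in the wild-type libraries. All 3 knock-in sums were above the wild-type sums, knock-in replicate 1 by the smallest margin. As a share of the summed FPKM of each library the family was at 0.207%, 0.222% and 0.206% in knock-in, against 0.206%, 0.204% and 0.210% in wild type, and on this scale the genotypes overlapped. Per Lrrk2 transcript, the family's summed FPKM was 58.4 ± 4.94 times that of Lrrk2 in knock-in and 58.4 ± 4.51 times in wild type (SD, n = 3 each).

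Within the pool, Ywhah made up 9.75 ± 0.642% in knock-in and 9.07 ± 0.196% in wild type, and Ywhag 13.7 ± 0.752% in knock-in and 13.0 ± 0.508% in wild type (SD, n = 3 each). Ywhae made up 26.4 ± 0.445% in knock-in and 27.0 ± 0.459% in wild type, and Ywhaz 23.6 ± 1.45% in knock-in and 23.8 ± 0.213% in wild type. The shares of the 7 genes overlapped between genotypes in every case. The exact two-sided permutation test, whose smallest possible p is 0.1 with 3 libraries against 3, gave 0.2 for Ywhae and Ywhah and at least 0.3 for the others, and the adjusted p over the 7 genes was at least 0.56.

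The genes were also compared by their pattern over the 6 libraries, as the root-mean-square distance between z-scored log2(FPKM + 1) values. Among the members, Ywhag and Ywhah were nearest to each other, at 0.345, and 0.139% of the 7220 candidate genes were nearer to Ywhag than Ywhah was. Ywhab and Ywhaz were also nearest to each other among the members, at 0.477. Of the candidates, 2.08% were nearer to Ywhab than Ywhaz was, and 1.90% were nearer to Ywhaz than Ywhab was. The single nearest candidate gene was Kti12 for Ywhag (0.154), the adenylate kinase gene Ak5 for Ywhah (0.203) and the tropomyosin gene Tpm1 for Ywhab (0.176). It was the peroxisomal carrier gene Slc25a17 for Ywhaz (0.157), the nucleotidase gene Nt5c3 for Ywhae (0.0903) and the adhesion receptor gene Adgrb3 for Sfn (0.115). With 6 libraries and 7220 candidates, small distances arise easily, and these are descriptions of the libraries.

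The next comparison concerned enzymes that act on the LRRK2 sites bound by 14-3-3, or on the 14-3-3 dimer itself. Of 11 tested genes of 12, including Lrrk2, 5 were higher on average in knock-in, 6 were lower and 0 were called (0 also at an unadjusted p under 0.05), with a median log2 difference of -0.0019, against -0.01 over all tested genes. Protein kinase A phosphorylates LRRK2 at such sites. Prkacb, which encodes 1 of its catalytic subunits, stood at 44.7, 45.1 and 57.0 FPKM in the knock-in libraries, against 25.1, 43.4 and 44.3 FPKM in the wild-type libraries. Its groups did not overlap, as for 2.92% of tested genes in that direction, but wild-type replicate 1 was far below the other wild-type libraries (log2 difference 0.41, SE 0.23, adjusted p = 0.997 in limma). The other main catalytic subunit gene, Prkaca, was at 54.1 to 56.0 FPKM in knock-in and 54.8 to 58.3 FPKM in wild type. The groups of Ikbkb, which encodes a subunit of the IκB kinase complex, did not overlap either, with the knock-in libraries below, as for 6.58% of tested genes. Ikbkb was at 2.16 to 2.30 FPKM in knock-in and 2.32 to 2.39 FPKM in wild type (log2 difference -0.05, SE 0.06).

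Protein phosphatase 1 removes phosphate from these LRRK2 sites. Its catalytic subunit gene Ppp1cb stood at 13.8, 13.99 and 10.6 FPKM in the knock-in libraries, against 13.9, 14.2 and 14.8 FPKM in the wild-type libraries. Knock-in replicate 3 alone was clearly low (log2 difference -0.16, SE 0.10). The more abundant Ppp1ca was at 315.6 to 347.9 FPKM in knock-in and 303.4 to 331.6 FPKM in wild type. Pak6, whose kinase acts on 14-3-3γ, was at 13.9 to 14.9 FPKM in knock-in and 13.5 to 14.9 FPKM in wild type, so the knock-in range lay within the wild-type range.

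Clients in general signalling, such as FOXO factors, class IIa histone deacetylases and salt-inducible kinases, were represented by 38 tested genes of 42. Of these 16 were higher and 22 lower on average in knock-in, with a median log2 difference of -0.01, the same as that of all tested genes to 2 decimals, and 0 were called. Every knock-in library was below every wild-type library for 3 of them (7.89%), against 6.58% of all tested genes. An unadjusted p under 0.05 was reached by 2 (5.26%), both lower in knock-in, against 3.02% of all tested genes in that direction. Sik1, a salt-inducible kinase that holds CRTC coactivators in the cytosol, stood at 3.89, 4.04 and 3.35 FPKM in the knock-in libraries, against 4.49, 4.29 and 5.24 FPKM in the wild-type libraries. The groups of Sik1 did not overlap. Its log2 difference was -0.25 (SE 0.09), and limma gave it an adjusted p of 0.997.

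Clients and partners in neurons were represented by 15 tested genes of 16. Of these 11 were higher and 4 lower on average in knock-in, where 43.6% of all tested genes were higher. Their median log2 difference was 0.05, against -0.01 over all tested genes. In limma 0 were called, where 0.0212% of all tested genes were, and 0 had an unadjusted p under 0.05. The genotypes overlapped for each of the 15. Ndel1, the 14-3-3ε partner, stood at 23.7, 24.9 and 23.9 FPKM in the knock-in libraries, against 24.1, 21.3 and 21.5 FPKM in the wild-type libraries. Wild-type replicate 1 lay among the knock-in libraries. Mapt, which encodes the 14-3-3 client tau, stood at 25.1, 44.9 and 43.9 FPKM in the knock-in libraries, against 13.2, 12.2 and 44.1 FPKM in the wild-type libraries. The libraries of each genotype were spread over more than 1 level, and the log2 difference of 0.89 (SE 0.55) was not called (adjusted p = 0.997 in limma).

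**Figure D4:**
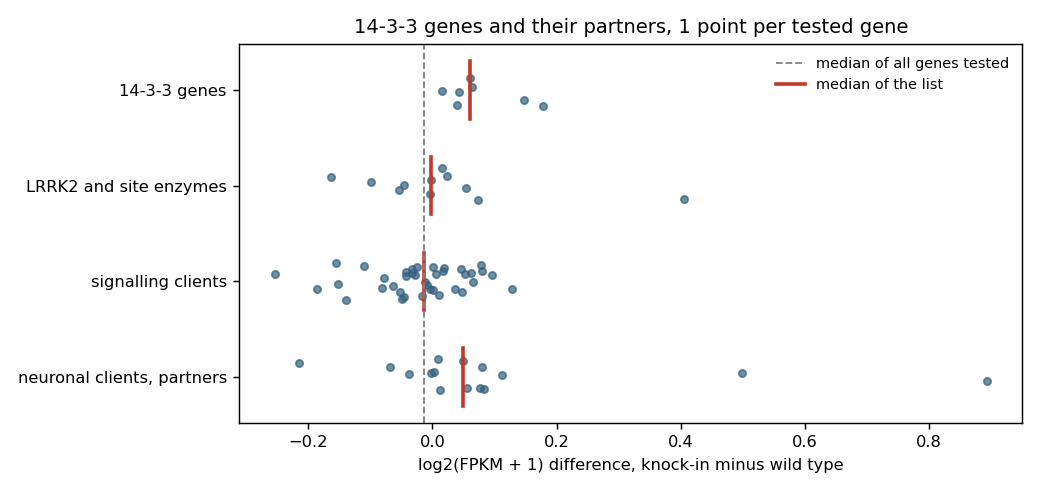
Difference in log2(FPKM + 1) between knock-in and wild type for each tested gene (1 point each, shifted vertically for sight) of the 14-3-3 family, of LRRK2 and the enzymes of its 14-3-3 sites, of signalling clients and of neuronal clients and partners. Red bars give list medians of 0.06, -0.0019, -0.01 and 0.05, and the dashed line the median of all tested genes, -0.01; the points farthest to the right are Mapt and Pafah1b1.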

How the data were processed

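The authors deposited 1 table of FPKM values, 1 column per library, per the file headers. Tools named in the submitters' processing notes were FastQC, HISAT2, SAMtools and StringTie, without roles or versions. For genome build, annotation and strand setting the sources used here give nothing, although the labels mention a stranded run. Columns were matched to samples by the codes in the labels. FPKM values carry no counts. Steps of whole reads were looked for in low values, and the best step left 36.4% to 40.4% of values within 0.1 of a whole number, where evenly spread values give 20%, so reads were not recovered and depth is unknown. No value in the table is exactly 0.

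Changes are on the log2(FPKM + 1) scale and so are understated for low genes such as Sfn. Genes averaging 1 FPKM or more were tested with limma 3.58.1 in R 4.3.3 (trended, robust prior variance, two-sided, Benjamini-Hochberg over 14156 genes). The script was tested on simulated data. Of 23067 gene identifiers 22972 matched GENCODE M21 (GRCm38), which gave positions, transcripts and sequences and may differ from the authors' annotation. Coding sequences are of the principal isoform and were aligned with Biopython 1.88.

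Genes named were the 7 members, Lrrk2, from each other list the 2 genes of lowest p, the gene nearest in pattern to each member and the Ywhaq pseudogenes; some of these are not reported here. Slc17a7, Lamp5, Cux2, Ttr, Folr1, Kl, Clic6, Prkaca, Ppp1ca, Pak6, Ikbkb, Gm12428, Gm4202, Gm14287, Gm2423 and Pafah1b1 were chosen after their values were seen. The members and lists were chosen with earlier results of these data known. Alternatives were a pseudocount of 0.1, no filter, a minimum of 5 FPKM, quantile and median-of-ratios scaling, no trended or robust prior, a replicate block, leaving out each library and, added after seeing the data, the cortical marker covariate and the FPKM of pseudogene copies added to their 14-3-3 gene, weighted by transcript length.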

Additional observations from a re-analysis of the deposited data

How the results depend on the processing

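No 14-3-3 gene was called under any of the 15 alternatives (14 for Sfn, which a minimum of 5 FPKM removed), with adjusted p-values in limma of 0.632 to 1. Ywhag and Ywhah were higher on average in knock-in under all 15, with log2 differences of 0.11 to 0.19 and 0.11 to 0.23. Leaving out 1 library gave 0.12 to 0.19 for Ywhag, 0.14 to 0.23 for Ywhah, 0.04 to 0.09 for Ywhab, 0.019 to 0.13 for Ywhaz and 0.0041 to 0.06 for Ywhaq. It gave -0.00023 to 0.077 for Ywhae and -0.025 to 0.057 for Sfn, whose sign turned without knock-in replicate 2 (both genes; Sfn -0.0078) or wild-type replicate 1 (Sfn -0.025). The count over all genes, 3, became 11, 14 and 6 when knock-in replicates 1, 2 and 3 in turn were left out and 8 when wild-type replicate 2 was, a range of 3 to 14; the cause was not tested. The difference in summed FPKM, 36.8, ran between 22.4 and 49.1 without 1 library. With the replicate block, which shares only a number (correlations of same-numbered deviations -0.01, -0.07 and 0.19), the differences were 0.15 for Ywhag and 0.18 for Ywhah, with unadjusted p-values of 0.113 and 0.0802, no 14-3-3 gene was called and the count over all genes was 2, against 3. Median-of-ratios scaling gave 0.17 and 0.20, with unadjusted p-values of 0.019 and 0.012 in limma. Over all 15 alternatives the unadjusted limma p-values ran between 0.016 and 0.168 for Ywhag and between 0.0089 and 0.165 for Ywhah. The lowest were those without knock-in replicate 3, and the highest those with the cortical marker covariate. FPKM depth is unknown, so precision rests on 3 libraries per genotype.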

Other observations

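Among the neuronal partners, Pafah1b1, the LIS1 gene of the complex that holds 14-3-3ε and Ndel1, stood at 35.7, 36.3 and 39.9 FPKM in the knock-in libraries, against 13.8, 34.4 and 37.0 FPKM in the wild-type libraries, each in the order of replicates 1, 2 and 3. Its low library, wild-type replicate 1, was also the lowest of the 6 for Prkacb and among the 2 lowest for Mapt. Ywhag was lowest there too, but by a small margin, at 83.1 FPKM against 85.7 FPKM in wild-type replicate 2. Without regard to genotype, Mapt had 25.1 FPKM in knock-in replicate 1, 12.2 to 13.2 FPKM in wild-type replicates 1 and 2 and 43.9 to 44.9 FPKM in the other 3 libraries. Pafah1b1 was named after its values were seen, and the source of the separate levels was not tested.

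Myelinating oligodendrocyte markers summed to 2276 to 2814 FPKM in knock-in and 2828 to 3218 FPKM in wild type, with 6 of 6 lower on average in knock-in and 0 called in limma, where 3 had an unadjusted p under 0.05, against 3.02% of all tested genes in that direction. Ependymal markers summed to 14.3 to 20.3 FPKM in knock-in and 21.3 to 24.2 FPKM in wild type. On average 5 of 5 were lower in knock-in, and 0 were called in limma. Of the 5, 3 had no overlap between genotypes, against 6.58% of all tested genes in that direction. An unadjusted p under 0.05 in limma was reached by 4, against 3.02% of all tested genes in that direction. The mean differences of the 14-3-3 genes were towards knock-in, and the part of oligodendrocyte or ependymal makeup in them was not tested. Choroid plexus markers summed to 382.0 FPKM in wild-type replicate 2, the library in which Ywhaq-ps3 was low, and to 6.37 to 21.5 FPKM in the other 5. Of the 382.0 FPKM, 374.4 FPKM was Ttr alone, and each of the other markers was at 5.31 FPKM or less there. A link to Ywhaq-ps3 was not tested.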
